A study of Mus musculus with 2207 samples.

Results

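Interferons are secreted proteins by which cells warn each other of infection. Type I interferons bind the receptor chains Ifnar1 and Ifnar2, whose kinases Jak1 and Tyk2 phosphorylate transcription factors such as Stat2, which acts with Irf9 on a promoter motif called the interferon-stimulated response element (ISRE). Genes switched on in this way encode sensors of foreign RNA and DNA, enzymes that degrade RNA or block translation, and modifiers of proteins. Microglia, the macrophages that live in brain tissue, are known to respond strongly to interferon, and many interferon-induced genes also have a basal level without infection.

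The levels of 36 such genes were described in single cortical nuclei of an *Ehmt1* mouse model. The genes were taken by symbol from a fixed list, and all 36 were found among the 52636 genes of the deposited tables. *Ehmt1* encodes GLP, an enzyme that methylates lysine 9 of histone H3, and loss of one copy models Kleefstra syndrome. RamDA-seq, which reads total RNA over the whole length of transcripts, was applied to 2207 nuclei that were stained for DNA, sorted singly into wells and labelled by the authors as 1664 neurons, 397 oligodendrocytes and, for the remaining 36, 32, 16, 19, 20 and 23 nuclei of the 6 pools described next, microglia.

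The nuclei came from 6 pools, each of 3 C57BL/6 mice of 14 weeks given 2 tamoxifen doses of 100 mg/kg, labelled as at 3 weeks of age, which the methods space by 1 week. Of the 96-well plates, 1 pool was wild type (Ehmt1+/+) and 1 was Ehmt1delta/+, here written Ehmt1Δ/+. The 4 pools of the 384-well plates all carried the Ehmt1 iTg transgene, which makes GLP after Cre recombination: Ehmt1+/+ and Ehmt1Δ/+ without CamKII-CreER (WT and Ehmt1Δ/+), Ehmt1+/+ with CamKII-CreER (iTg) and Ehmt1Δ/+ with CamKII-CreER (Ehmt1Δ/+; iTg). The legends of the study describe CamKII-CreER in every one of the 384-well genotypes. The labels, which were followed here, do not, so comparisons with iTg pools hold only as far as the labels do. CamKII drives CreER in excitatory neurons, so neither microglia nor oligodendrocytes are meant to switch the transgene on. Values for 6 pools are listed throughout in the order WT and Ehmt1Δ/+ of the 96-well plates, then WT, Ehmt1Δ/+, iTg and Ehmt1Δ/+; iTg of the 384-well plates. The labels do not give the mouse behind a nucleus, and tests therefore compared pools, of which each genotype had 1 per plate format.

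The deposited values are RPKM, reads scaled to exon length in kilobases and to the nucleus's read total. The median nucleus held between 323273 and 397880 reads in neurons of every pool, between 441701 and 510639 reads in glia of the 96-well plates, and between 39940 and 54877 reads in glia of the 384-well plates. The 384-well WT pool stood alone under its plate code, and the other 3 pools of that format shared another, so plate and genotype cannot be told apart there. Over the pools, 8 microglia markers summed to between 2592 and 4171 RPKM in microglia, at most 11.9 RPKM in neurons and at most 13.5 RPKM in oligodendrocytes. Separation by 6 neuron markers was less complete, with 268.2 to 348.3 RPKM in neurons, 1.49 to 75.6 RPKM in microglia and 4.78 to 61.1 RPKM in oligodendrocytes. The labels had been set from clusters and marker genes of the same nuclei, so differences between cell types describe these labelled sets. *Ehmt1* itself was higher in each pool labelled Ehmt1Δ/+ than in its partner, for example 18.7 against 31.2 RPKM in 96-well neurons and 19.5 against 31.7 RPKM in 384-well neurons. Its gene-level value adds the deleted exons to the others and does not check the label, so every genotype direction below rests on the labels alone.

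The ISRE is the sequence on which the complex of Stat2 and Irf9 sits, so the promoters were searched for its core, GAAA and GAAA with any NN between them, on both strands of the 300 bases from 250 before to 50 after each RefSeq start (GRCm38.p6). Of the 36 genes, 27 had such a window, and 13 of these (48.1%) held the core, against 1079 of 27025 genes with a window (3.99%). The genes with the core were *Stat2*, *Ifit1*, *Ifit3*, *Isg15*, *Oas1a*, *Ifih1*, *Ddx58*, *Eif2ak2*, *Gbp2*, *Gbp3*, *Bst2*, *Rsad2* and *Trim30a*. The gamma-activated site, TTCNNNGAA, was held by 9 of the 27 genes with a window (33.3%) against 9.55% of all genes with a window. The core was found both in genes that passed as higher in neurons than in microglia (*Ifit1*, *Ifit3*, *Isg15*) and in genes that passed the other way (*Oas1a*, *Gbp3*, *Trim30a*), and 1 site of each is shown for this contrast, with the core in capitals and in the direction of the gene. A match describes these letters and not a bound site.
Ifit1, chr19:34640775-34640804, plus strand: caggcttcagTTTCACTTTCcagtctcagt
Ifit3, chr19:34583363-34583392, plus strand: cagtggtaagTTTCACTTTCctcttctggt
Isg15, chr4:156200871-156200900, minus strand: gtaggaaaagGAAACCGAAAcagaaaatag
Oas1a, chr5:120907520-120907549, minus strand: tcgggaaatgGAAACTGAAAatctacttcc
Gbp3, chr3:142559989-142560018, plus strand: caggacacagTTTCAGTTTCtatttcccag
Trim30a, chr7:104465210-104465239, minus strand: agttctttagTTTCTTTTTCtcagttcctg

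Most of the genes were highest in microglia. Added up, the 36 genes came to 248.2 ± 41.4 RPKM in microglia (mean ± SD, n = 6 pools), 77.7 ± 9.54 RPKM in neurons and 49.9 ± 8.85 RPKM in oligodendrocytes. In neurons the editing enzyme *Adar* alone made up much of this sum, which was 39.8 ± 3.84 RPKM without it. In a limma fit over all 31207 genes with a mean of at least 0.1 RPKM, which kept 34 of the 36 genes (*Rsad2* and *Ifi44* fell below), 23 genes were higher in microglia than in neurons, where 16.9% of all genes were, and 5 were lower, where 44.4% of all genes were. The median log2 difference (RPKM + 0.1) of the 34 genes was 2.72, beside -0.93 for all genes. Against oligodendrocytes, 23 genes were higher in microglia (18.5% of all genes) and 2 were lower (19% of all genes), with a median of 2.98 beside -0.04. Oligodendrocytes had 10 genes lower than neurons (38.2% of all genes) and 4 higher (11.2% of all genes). Without the microglia nuclei that held the border macrophage genes *Mrc1* or *Cd163*, an alternative chosen after seeing the data, 20 genes were higher in microglia than neurons and 20 higher than in oligodendrocytes. A mean over a pool does not tell fewer nuclei with a gene from less RNA per nucleus, so the share of nuclei above 0 is given beside the levels.

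**Figure D1:**
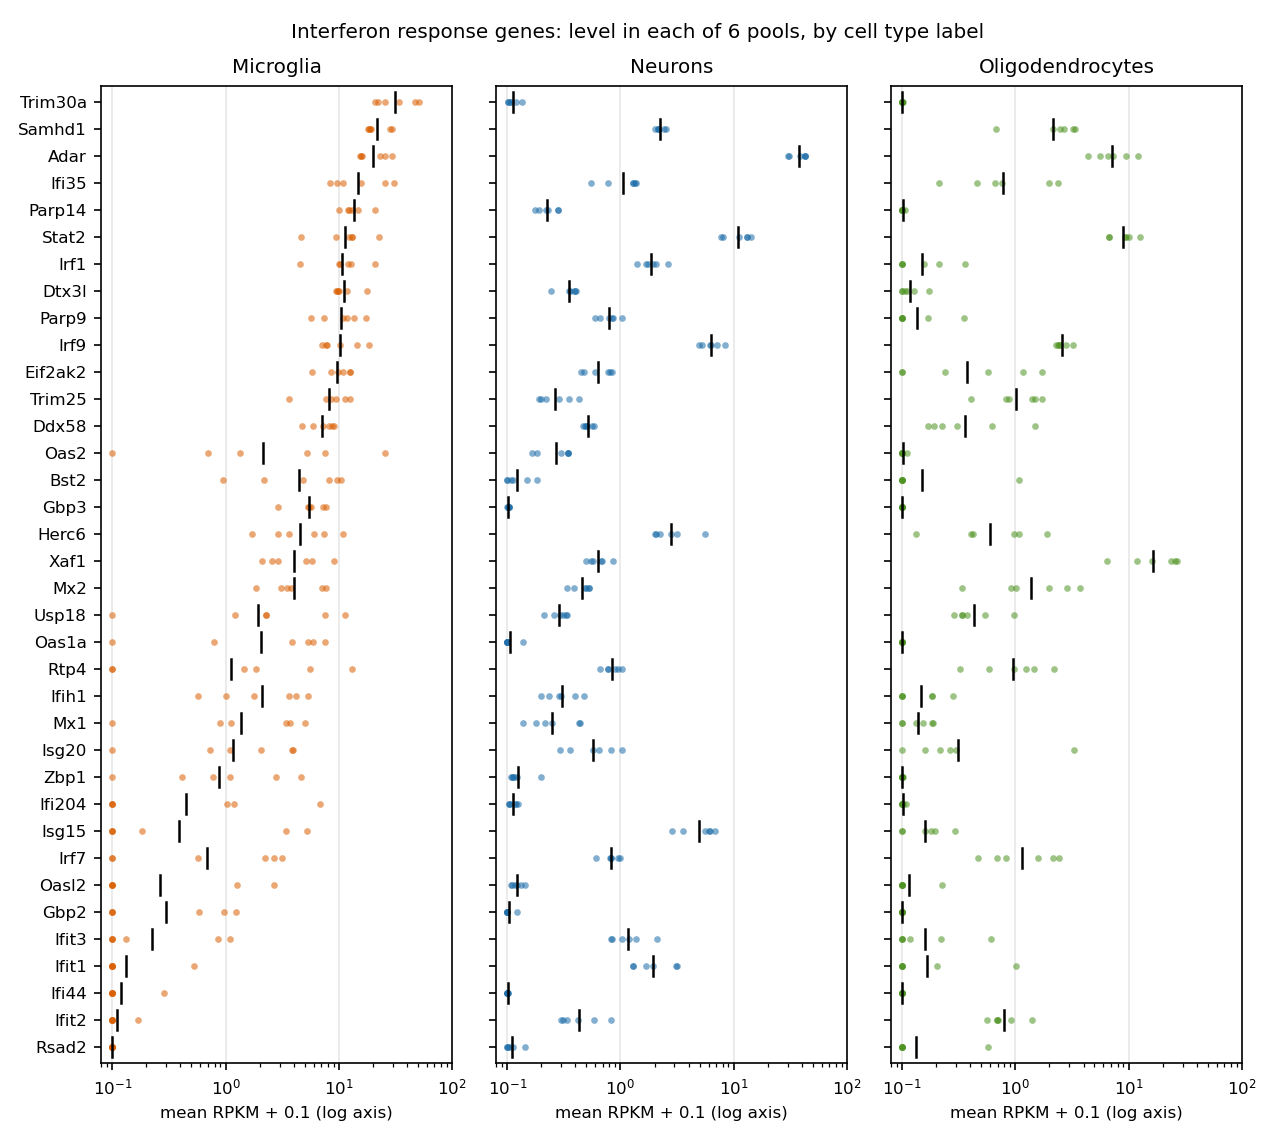
Mean RPKM + 0.1 of the 36 genes (1 per row, log axis, a level of 0 at 0.1) in microglia, neurons and oligodendrocytes, with 1 point for each of the 6 pools and a bar at their mean on the log scale. *Trim30a* and *Gbp3* show no overlap between microglia and the other cell types, *Ifit1* lies higher in all neuron pools than in microglia, and *Xaf1* is highest in oligodendrocytes.

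Among the transcription factors, *Irf1*, which binds promoters of interferon genes and of many targets, was at 11.9, 4.41, 12.7, 9.92, 20.7 and 10.2 RPKM in microglia. In neurons it was at 1.29, 1.66, 2.55, 1.94, 1.85 and 1.58 RPKM. No microglia pool fell to the level of a neuron pool, and the log2 difference was 2.51 ± 0.39 (SE, adjusted p = 9.63e-05 by limma). Oligodendrocytes had *Irf1* in only 5 of 397 nuclei. *Irf9* and *Stat2*, partners in the same complex, had a basal level in all 3 cell types. *Irf9* was at 7.65, 10.3, 7.06, 18.5, 7.74 and 14.5 RPKM in microglia and found in 1540 of 1664 neurons, where its pools lay between 4.85 and 8.28 RPKM. Its higher level in microglia (log2 0.72 ± 0.24, adjusted p = 0.0216 by limma) no longer passed without the highest nucleus of each pool (adjusted p = 0.335 by limma) or without any 1 of the 3 pools labelled Ehmt1Δ/+ (adjusted p = 0.0611, 0.0617 and 0.076 in pool order). *Stat2* was at 4.55, 13.1, 12.1, 22.7, 9.33 and 12.9 RPKM in microglia, 7.65 to 14.0 RPKM in neurons and 6.66 to 12.7 RPKM in oligodendrocytes, so the 3 cell types overlapped and no difference passed. *Irf7*, the factor that amplifies the response after a first signal, was at 0 in 2 of the 6 microglia pools and between 0.511 and 0.886 RPKM in neurons. Both pools at 0 were 384-well pools, and no difference from neurons passed over all pools (log2 -0.261, adjusted p = 0.788 by limma). In the 96-well pools alone *Irf7* passed as higher in microglia (log2 2.03, adjusted p = 0.01 by limma). The 96-well WT microglia level of 2.56 RPKM fell to 1.03 RPKM without its highest nucleus.

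The tripartite motif proteins held the gene with the widest gap. *Trim30a*, a mouse protein that restrains innate signalling (ENSMUSG00000030921, chr7:104409025-104465193, minus strand, mm10), was at 34.3, 50.6, 22.1, 20.9, 25.7 and 46.6 RPKM in microglia. Neurons reached at most 0.0354 RPKM in any pool, and a single oligodendrocyte of 397 held the gene. The log2 difference was 8.14 ± 0.22 against neurons (adjusted p = 1.59e-11 by limma) and 8.3 ± 0.22 against oligodendrocytes, and *Trim30a* was found in 83.6% of microglia. Of its values above 0, 48.4% were not whole reads. *Trim25*, the ubiquitin ligase that activates the sensor RIG-I, was at 3.53, 12.4, 11.2, 9.29, 8.39 and 7.64 RPKM in microglia and no more than 0.328 RPKM in neurons. It differed also between the other cell types, with 0.304 to 1.61 RPKM in oligodendrocytes (log2 1.92 ± 0.34 above neurons, adjusted p = 0.000414 by limma).

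*Parp9*, *Parp14* and *Dtx3l*, neighbours on chromosome 16 whose products attach ADP-ribose (Dtx3l being the ubiquitin ligase that pairs with Parp9), had the same order of cell types. *Parp14* was at 14.7, 21, 9.94, 12.3, 12 and 13 RPKM in microglia, at most 0.182 RPKM in neurons and at 0 in 5 of 6 oligodendrocyte pools. *Dtx3l* was at 9.61, 9.29, 9.9, 17.5, 11.8 and 9.67 RPKM in microglia and no more than 0.308 RPKM in neurons. *Parp9* was at 13.7, 11.8, 7.3, 17.4, 5.59 and 10.7 RPKM in microglia and 0.494 to 0.936 RPKM in neurons. For all 3 genes microglia lay above neurons and neurons above oligodendrocytes, with log2 differences of 5.91, 4.98 and 3.73 for *Parp14*, *Dtx3l* and *Parp9* in the former step. The latter step was lost for *Parp14* and *Dtx3l* at a pseudocount of 1 (adjusted p = 0.283 and 0.098 by limma), and for *Dtx3l* also in the 96-well pools alone. *Parp9* and *Dtx3l* share 458 exon bases on opposite strands. The authors state default settings of featureCounts, which ignore strand, but the deposited values hold fractions of a read. How reads in these bases were assigned to both genes cannot be told from the values.

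Of the restriction factors, *Samhd1* and *Bst2* were higher in microglia and *Rsad2* was not found there. *Samhd1*, which cleaves the nucleotides that viruses need, was at 18.9, 29.6, 28.4, 19.1, 18.2 and 18.4 RPKM in microglia and found in 89.7% of nuclei, more than any other of the 36 genes. Neurons were at 1.94 to 2.44 RPKM (log2 difference 3.28 ± 0.34, adjusted p = 2.70e-06 by limma). *Bst2*, which encodes tetherin and tethers budding virus to the cell, was at 8.06, 9.5, 10.4, 4.69, 0.858 and 2.07 RPKM in microglia and no more than 0.0813 RPKM in neurons. *Rsad2*, which encodes viperin, was listed at 0 in all microglia, which allows a share of nuclei with a read of up to 8.33% in the WT pool of the 96-well plates and up to 18.8% in the smallest pool, and sets no limit on nuclei that express the gene below 1 read. *Rsad2* was above 0 in 7 neurons and 1 oligodendrocyte.

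The guanylate-binding protein *Gbp3*, a GTPase induced by type I and type II interferon, was at 2.79, 7.67, 5.21, 7.15, 5.56 and 5.4 RPKM in microglia. It was at most 0.00339 RPKM in neurons and at 0 in all 397 oligodendrocytes, and the log2 difference from neurons was 5.74 ± 0.2 (adjusted p = 1.32e-10 by limma). *Gbp2* passed the same test (log2 1.53 ± 0.55, adjusted p = 0.0287) on 4 microglia nuclei only, and lost it without the 96-well WT pool (adjusted p = 0.0892 by limma), without the Ehmt1Δ/+; iTg pool (0.109) and without nuclei with *Mrc1* or *Cd163* (0.108). Working Mx proteins are GTPases that trap viral particles. The gene annotation lists *Mx2* as a polymorphic pseudogene, and RNA levels do not tell whether a working protein is made. *Mx2* was at 3.42, 7.55, 3.01, 3.73, 1.77 and 6.96 RPKM in microglia and 0.235 to 0.428 RPKM in neurons, and *Mx1* was at 1.02, 3.6, 4.9, 0.795, 0 and 3.32 RPKM in microglia. The call for *Mx1* against neurons (log2 2.44 ± 0.73, adjusted p = 0.0117 by limma) was lost without the nuclei with *Mrc1* or *Cd163* (adjusted p = 0.0541), without the 96-well Ehmt1Δ/+ pool (0.0504) or the Ehmt1Δ/+; iTg pool (0.0512), and in the 384-well pools alone (0.14).

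The sensors of foreign nucleic acids were higher in microglia than in neurons. *Ddx58*, which encodes RIG-I, was at 7.18, 8.91, 8.19, 4.6, 5.87 and 8.65 RPKM in microglia and between 0.364 and 0.486 RPKM in neurons (log2 difference 3.79 ± 0.4, adjusted p = 2.91e-06 by limma). *Ifih1*, which encodes MDA5, was at 3.51, 5.29, 0.901, 0.476, 1.67 and 4.1 RPKM in microglia and no more than 0.373 RPKM in neurons. *Eif2ak2*, which encodes the RNA-activated kinase PKR, was at 5.73, 8.41, 12.4, 10.8, 9.71 and 12.5 RPKM in microglia and 0.345 to 0.74 RPKM in neurons. All microglia pools lay above all neuron pools for these 3 genes. *Zbp1*, a sensor of Z-form nucleic acids, and *Ifi204*, a DNA sensor, were above 0 in only 11 and 18 microglia. *Ifi204* has close copies, and 78.9% of its values were not whole reads. Whether its reads were divided with these copies was not tested. The call for *Ifi204* against neurons (log2 2 ± 0.77, adjusted p = 0.0398 by limma) was lost without the 96-well WT pool (adjusted p = 0.119), the 96-well Ehmt1Δ/+ pool (0.113) or the Ehmt1Δ/+; iTg pool (0.121).

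The oligoadenylate synthetases, which activate RNase L, rested on few nuclei. *Oas1a* was at 5.87, 5.25, 7.52, 0.685, 0 and 3.77 RPKM in microglia, from 17 nuclei, and was found in 1 neuron of 1664 and in no oligodendrocyte. *Oas2* was at 5.15, 7.46, 25.5, 0.594, 0 and 1.24 RPKM in microglia, from 7 nuclei, and was found in 10.3% of neurons. Its higher level in microglia (log2 2.99 ± 0.86, adjusted p = 0.00889 by limma) rested on these nuclei: it was -0.52 without each pool's highest nucleus and -0.07 without nuclei with *Mrc1* or *Cd163*, neither of which passed (adjusted p = 0.436 and 0.956 by limma). *Oasl2* was found in 3 microglia and the RNA exonuclease gene *Isg20* in 11, and neither passed, although *Isg20* did without the 384-well WT pool (adjusted p = 0.0044 by limma) and *Oasl2* in the 96-well pools alone (adjusted p = 0.0163).

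A group of genes went the other way, with a level in neurons and next to none in microglia. *Ifit1*, whose product binds foreign RNA and blocks its translation (ENSMUSG00000034459, chr19:34640871-34650009, plus strand), was at 2.98, 3.09, 1.19, 1.57, 1.2 and 1.84 RPKM in neurons. It was found in 566 of 1664 neurons and in 1 microglial nucleus, so every neuron pool lay above every microglia pool (log2 difference -3.88 ± 0.62, adjusted p = 0.00013 by limma). *Isg15*, the ubiquitin-like protein that marks newly made proteins, was at 2.75, 3.45, 6.72, 5.95, 6.07 and 5.51 RPKM in neurons and above 0 in 644 of them. Microglia were at 0, 0.0841, 5.09, 3.33, 0 and 0 RPKM from only 3 nuclei, so 2 microglia pools reached the range of neurons (log2 difference -3.68 ± 0.84, adjusted p = 0.00221 by limma), and 6 oligodendrocytes held the gene. *Ifit3* was at 1.29, 2.01, 0.741, 0.725, 1.09 and 0.941 RPKM in neurons and found in 4 microglia, with a log2 difference of -2.38 ± 0.6 (adjusted p = 0.00419 by limma) that did not pass in the 96-well pools alone (adjusted p = 0.0844). *Ifit2* was at 0.212 to 0.719 RPKM in neurons and found in 1 microglial nucleus, and its higher level in oligodendrocytes than neurons (log2 0.87 ± 0.2, adjusted p = 0.00244 by limma) was lost without each pool's highest nucleus (log2 -0.0145, adjusted p = 0.985).

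Single neurons with *Ifit1* more often held *Ifit3*. Of neurons with *Ifit1* above 0, 57.8%, 61.9%, 37.5%, 44.6%, 47.5% and 52.1% also had *Ifit3*, against 9.27%, 15%, 10.7%, 10.2%, 9.81% and 7.07% of neurons without *Ifit1*. The gap had the same direction in all 6 pools and neurons with *Ifit1* had median reads between 345066 and 545747, against 298530 to 367514 without. For *Isg15* the shares were 36.3%, 45.8%, 51.1%, 41.6%, 47.5% and 32.3% with *Ifit1* against 37.1%, 40.1%, 38.6%, 33.2%, 32.7% and 41.9% without, higher in 4 pools and lower in 2. The *Ifit* genes lie side by side on chromosome 19 and are similar in sequence. Of the values of *Ifit3*, which has the copy *Ifit3b*, 52.7% were not whole reads. Whether reads were divided between these copies was not tested. The shares of neurons are descriptions, since nuclei of a pool are not replicates.

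*Adar*, which converts adenosine to inosine in double-stranded RNA and keeps a cell's own RNA from triggering the sensors, was the highest of the genes in neurons. It was at 30.5, 30.2, 42.7, 42.9, 42.7 and 38.4 RPKM there and above 0 in 1663 of 1664 nuclei. In microglia it was at 15.7, 16.1, 29.2, 25.5, 15.3 and 23.2 RPKM, below neurons in every pool (log2 -0.89 ± 0.22, adjusted p = 0.00391 by limma), and oligodendrocytes were lower again at 4.26 to 11.9 RPKM. *Adar* shares 1365 exon bases with *Chrnb2* on the opposite strand, a receptor subunit gene that was itself at 11.5 RPKM in neurons and 4.76 RPKM in microglia, and its part in the difference was not tested.

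*Xaf1*, whose product counters the apoptosis inhibitor XIAP, had its highest level in oligodendrocytes. It was at 26.4, 25.7, 11.8, 16.1, 6.31 and 23.5 RPKM there, from 72% of nuclei. Microglia were at 5.09, 8.97, 2.46, 2.81, 1.99 and 5.65 RPKM and neurons at 0.393 to 0.768 RPKM. In each pool the order was oligodendrocytes, microglia, neurons, with a log2 difference of 4.71 ± 0.24 between oligodendrocytes and neurons (adjusted p = 5.48e-09 by limma) and -2.04 ± 0.24 between microglia and oligodendrocytes (adjusted p = 1.88e-05). Of the other induced genes, *Ifi35* was at 10.7, 8.28, 9.54, 15.7, 25.6 and 30.5 RPKM in microglia and 0.452 to 1.28 RPKM in neurons. *Rtp4* ranged from 0 to 13 RPKM over microglia pools and did not pass, and *Ifi44* was found in 1 microglial nucleus.

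The enzymes that handle Isg15 did not follow Isg15. *Usp18*, which removes Isg15 and damps the receptor, was at 1.12, 7.47, 0, 2.16, 2.19 and 11.2 RPKM in microglia and no more than 0.239 RPKM in neurons. Its log2 difference of 2.76 ± 0.85 (adjusted p = 0.0132 by limma) was lost in the 384-well pools alone (adjusted p = 0.11) and without the 96-well Ehmt1Δ/+ pool (adjusted p = 0.0502). *Herc6*, the mouse ligase that attaches Isg15, was at 7.27, 10.9, 2.79, 1.63, 3.57 and 5.97 RPKM in microglia. Its neuronal pools had 3.08, 5.51, 1.93, 2.12, 1.97 and 2.68 RPKM, and microglia and neurons overlapped (log2 0.71 ± 0.39, adjusted p = 0.134 by limma), although the difference passed without the 384-well Ehmt1Δ/+ pool (adjusted p = 0.0368), in the 96-well pools alone and at a pseudocount of 1. *Herc6* shares 1269 exon bases on the same strand with the unnamed transcript *Gm45193*.

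Neurons were split by the higher of *Slc17a7*, the glutamate transporter of excitatory neurons, and *Gad1*, the GABA-synthesising enzyme of inhibitory neurons, a comparison chosen after seeing the data. It gave 62, 43, 73, 52, 53 and 50 *Gad1* nuclei, and *Slc17a7* nuclei were 75.5%, 83%, 73.7%, 82.7%, 80% and 82.1% of the neurons of a pool. In a limma fit with the pool as a block, 6 of 26 genes were higher in *Gad1* nuclei, where 17% of all genes were, and 5 were lower, where 16.7% were. The median log2 difference of the 26 genes was 0.0954, beside 0.00664 for all genes. Median reads lay between 333928 and 406929 in *Slc17a7* and between 246008 and 369383 in *Gad1* nuclei of the pools, and their part in the differences was not tested.

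*Herc6* was the clearest of them. It was at 3.9, 6.44, 2.52, 2.51, 2.38 and 3.18 RPKM in *Slc17a7* nuclei and at 0.562, 1.01, 0.282, 0.227, 0.31 and 0.406 RPKM in *Gad1* nuclei. No pool of one class reached the other (log2 -2.7 ± 0.085, adjusted p = 1.72e-05 by limma). *Ifih1* was at 0.122 to 0.443 RPKM in *Slc17a7* nuclei and at most 0.0659 RPKM in *Gad1* nuclei (log2 -1.53 ± 0.14, adjusted p = 0.000377), and *Xaf1* at 0.508 to 0.909 RPKM against 0.0608 to 0.237 RPKM (log2 -1.8 ± 0.2, adjusted p = 0.00088). *Irf1* and *Stat2* also passed, with log2 differences of -1.42 and -0.335.

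*Ifit1* and *Ifit2* were higher in *Gad1* nuclei, while *Ifit3*, higher in 5 of 6 pools, did not pass. *Ifit2* was at 0.262, 0.399, 0.218, 0.0956, 0.13 and 0.194 RPKM in *Slc17a7* nuclei and at 1.17, 2.39, 0.617, 0.781, 0.498 and 0.448 RPKM in *Gad1* nuclei, without overlap (log2 1.63 ± 0.21, adjusted p = 0.00168 by limma). *Ifit1* was at 2.51, 2.48, 1.07, 1.46, 1.0 and 1.67 RPKM in *Slc17a7* nuclei and at 4.42, 6.34, 1.59, 2.13, 2.06 and 2.65 RPKM in *Gad1* nuclei, higher in *Gad1* nuclei of every pool though the classes overlapped across pools (log2 0.794 ± 0.13, adjusted p = 0.00385). *Samhd1* was at 1.63 to 2.0 RPKM against 2.58 to 3.97 RPKM, without overlap (log2 0.753 ± 0.1, adjusted p = 0.00191). *Mx2*, *Ifi35* and *Eif2ak2* were higher by log2 1.53, 1.5 and 0.5.

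**Figure D2:**
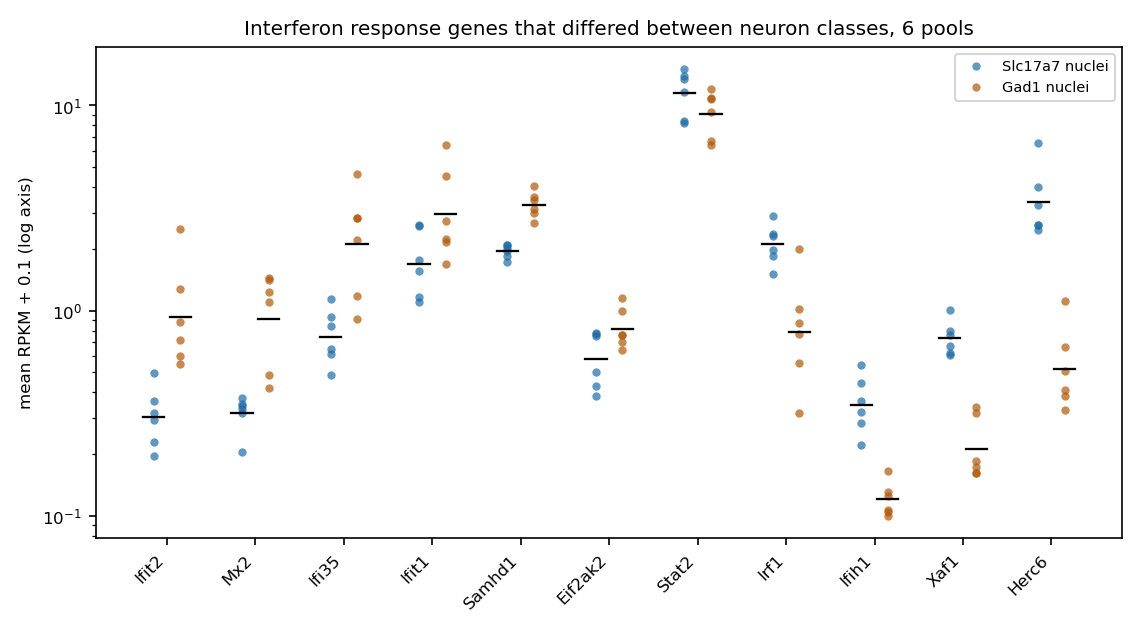
Mean RPKM + 0.1 (log axis) of the 11 genes that passed between neuron classes, with 1 point per pool for *Slc17a7* and for *Gad1* nuclei and a bar at the mean on the log scale. All points of *Herc6*, *Xaf1* and *Ifih1* are lower, and all points of *Ifit2* and *Samhd1* higher, in *Gad1* than in *Slc17a7* nuclei.

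Counted per nucleus, oligodendrocytes held the fewest of the 36 genes, and microglia as many as neurons or more. The median nucleus had 13, 14, 8, 8, 7.5 and 10 of them above 0 in microglia, 9, 9, 8, 8, 7 and 9 in neurons and 5, 5, 2, 2, 2 and 3 in oligodendrocytes. Read depth differed between formats and cell types, so nuclei were also thinned to 298761 reads in the 96-well and 48585 reads in the 384-well plates, which left out the 10% of nuclei with the fewest reads in each format. Thinned medians were 11.5, 13, 7.5, 9, 9 and 12 in microglia, 8, 9, 5, 5, 4 and 5 in neurons and 4, 4, 2, 2, 2 and 3 in oligodendrocytes. On thinned reads microglia lay above neurons in all 6 pools and neurons above oligodendrocytes. Thinning kept nearly all neurons of the 384-well pools but only their deeper microglia. These were 6 of 16, 6 of 19, 11 of 20 and 7 of 23 nuclei. Without thinning, microglia and neurons tied at 8 in the 384-well WT and Ehmt1Δ/+ pools. At 2 or more reads they tied at 6 in the 384-well Ehmt1Δ/+ and iTg pools.

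Some genes were found in nearly all microglia and others in a few nuclei with a high value. *Samhd1*, *Trim30a*, *Adar*, *Parp9*, *Parp14* and *Irf9* were above 0 in 89.7%, 83.6%, 76%, 67.8%, 63.7% and 61.6% of nuclei, and the highest nucleus held 3.95% of the summed level of *Samhd1* and 3.87% of that of *Trim30a*, with pools weighted equally. For 5 genes a single nucleus held over 50% of the level. *Oas2* had 63.8% in 1 nucleus of 7, *Isg15* had 59.9% in 1 nucleus of 3, and *Ifit1*, *Ifit2* and *Ifi44* were found in 1 nucleus each. On thinned reads the number of such genes was 3. A read total is behind each of these, and the single *Ifit1* value came from 1 read and the highest *Isg15* value from 3 reads.

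**Figure D3:**
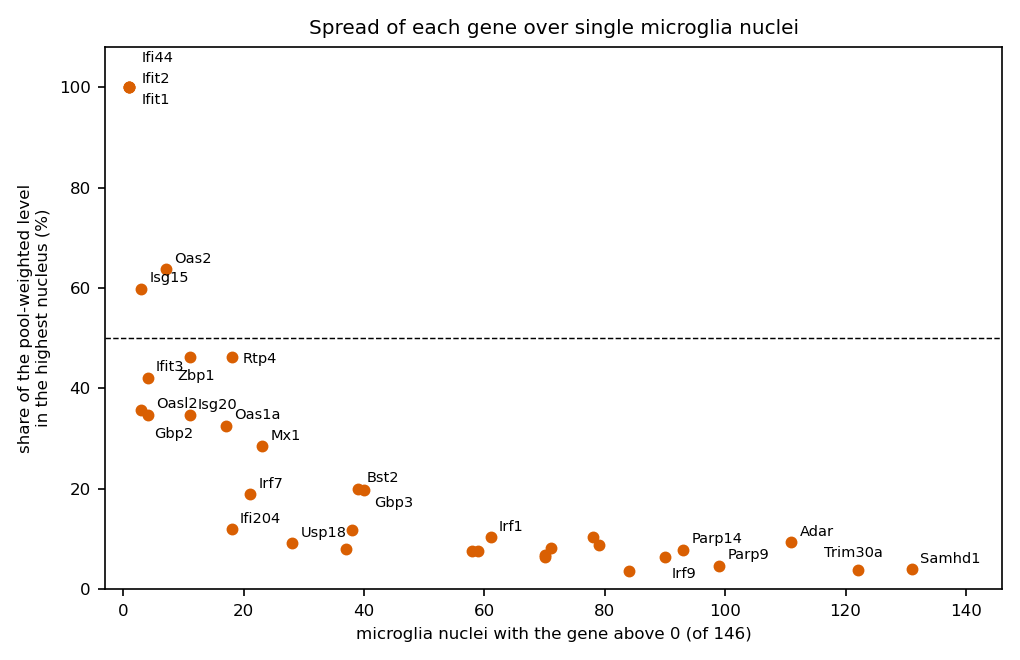
For each gene found in microglia, the number of nuclei above 0 (horizontal axis) and the share in percent of its level held by the highest nucleus, pools weighted equally (vertical axis), with a dashed line at 50%. *Samhd1* and *Trim30a* lie at the lower right with 89.7% and 83.6% of all microglia, and *Ifit1*, *Ifit2* and *Ifi44* at the upper left with 1 nucleus each.

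A few microglia held many of the genes at once. One nucleus of the 96-well Ehmt1Δ/+ pool had 31 of the 36 genes above 0 at 581895 reads, against a median of 14 in its pool. Its *Oas2* was at 160 RPKM, *Samhd1* at 120 RPKM, *Trim30a* at 92.6 RPKM and *Oas1a* at 71.1 RPKM. It was a nucleus with *Mrc1* at 840 RPKM, *Cd163* at 738 RPKM and the microglia marker *Tmem119* at 0. The microglia markers *P2ry12* and *Csf1r* were at 35.1 and 900.8 RPKM in it. It thus carried markers of border macrophages beside some of microglia, under a microglia label. It lacked *Irf7*, *Ifit1*, *Isg15*, *Zbp1* and *Rsad2*.

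The highest summed level, 1423 RPKM over the 36 genes, was in a nucleus of the 384-well WT pool with 17636 reads and 17 of the genes. *Oas2* was at 408 RPKM from 32 reads, *Adar* at 188.6 RPKM, *Rtp4* at 160 RPKM from 6 reads, *Trim30a* at 124.1 RPKM and *Oas1a* at 120 RPKM from 4 reads. This nucleus had *Mrc1* and *Cd163* at 0, *P2ry12* at 111.4 RPKM and *Tmem119* at 49 RPKM. It supplied all of the *Oas2* and *Oas1a* of its pool, so both genes were at 0 there without it. Another nucleus, of the Ehmt1Δ/+; iTg pool, had 20 of the genes and 51 RPKM of *Usp18*, with *Mrc1* at 0.

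One nucleus labelled microglia in the 96-well WT pool had *Tmem119*, *P2ry12*, *Csf1r* and *Cx3cr1* all at 0, beside 2288 RPKM of the lymphocyte gene *Nkg7* and 663 RPKM of *Ptprc*. It had 18 of the 36 genes, the most of its pool, and the highest *Irf7* of all microglia at 55.9 RPKM, 19% of the level of *Irf7*. Without it, 23 genes were still higher in microglia than in neurons.

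**Figure D4:**
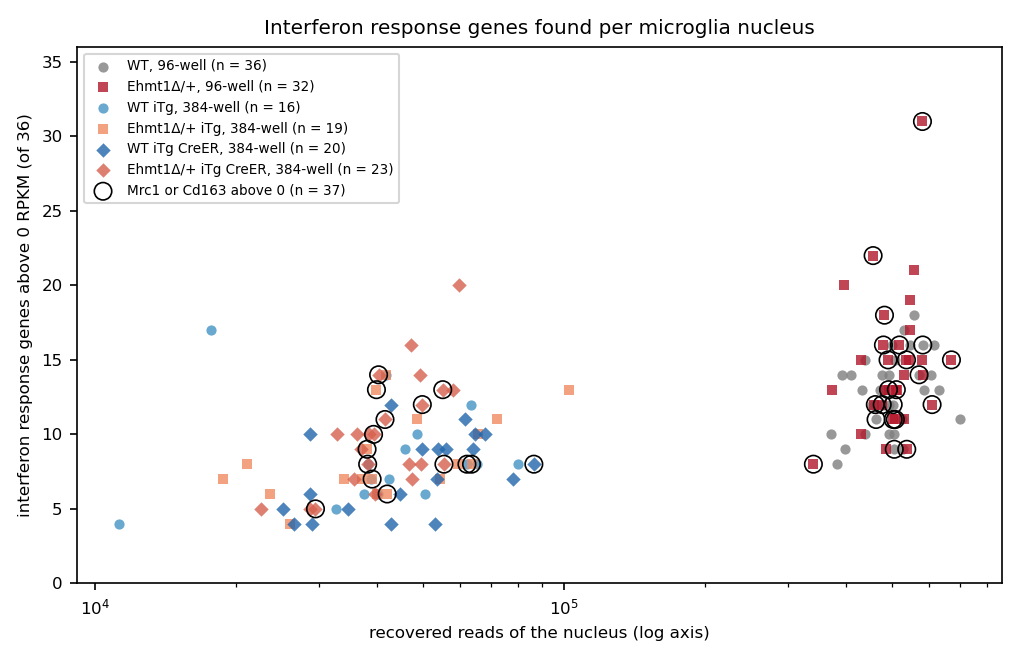
Reads recovered per microglia nucleus (horizontal log axis) and the number of the 36 genes above 0 in it (vertical axis), with colour and symbol for the pool and a ring around nuclei that held *Mrc1* or *Cd163*. The 96-well pools lie at higher reads than the 384-well pools, and the ringed nucleus with 31 genes and the WT nucleus with 17 genes at 17636 reads stand above their neighbours.

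Whether the genes change with loss of one *Ehmt1* copy was asked in each cell type by a limma fit of 4 pools that blocked on plate format and left 1 residual degree of freedom. No gene of the whole table passed in any cell type (0% of all genes in neurons, 0% in microglia and 0% in oligodendrocytes), and 0 of the 26, 32 and 21 of the 36 genes in the fits did. At an unadjusted p under 0.05 by limma there were 1 of 26 in neurons, 2 of 32 in microglia and 0 of 21 in oligodendrocytes. Of all genes, 2556 of 31326, 456 of 25295 and 785 of 25053 were under that level in the same order. Limma with a trend also called 0 of the 36 genes, with 0, 2 and 0 at that unadjusted level. The lowest adjusted p of the genes was 0.608 in neurons, 0.909 in microglia and 0.902 in oligodendrocytes. With 1 residual degree of freedom this says little about the absence of a change.

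In microglia, the genes under the unadjusted level were *Usp18* and *Isg20*. *Usp18* was at 1.12 RPKM in WT and 7.47 RPKM in Ehmt1Δ/+ microglia of the 96-well plates, at 0 and 2.16 RPKM in the 384-well plates, and at 2.19 and 11.2 RPKM in iTg and Ehmt1Δ/+; iTg microglia. Nuclei with *Usp18* numbered 2 of 36 and 12 of 32, 0 of 16 and 4 of 19, and 3 of 20 and 7 of 23. The pool labelled Ehmt1Δ/+ was higher in all 3 pairs (log2 3.56 ± 0.82 over the pairs without CreER), but the difference did not pass (adjusted p = 0.909 by limma). *Isg20* was at 0.6252 and 3.76 RPKM, 0 and 3.89 RPKM, and 0.995 and 1.96 RPKM in the same pairs, and the 3.89 RPKM came from 9 reads in 1 nucleus. *Irf1* was lower in the pools labelled Ehmt1Δ/+, at 11.9 and 4.41 RPKM, 12.7 and 9.92 RPKM, and 20.7 and 10.2 RPKM, without passing (log2 -0.88 ± 0.68, adjusted p = 0.909 by limma). Without nuclei that held *Mrc1* or *Cd163*, the 384-well pair of *Irf1* turned, at 12.2 and 13.5 RPKM.

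Over both plate formats without CreER, 9 of 32 genes were higher in Ehmt1Δ/+ microglia (18.8% of all genes were) and 2 were lower (19% of all genes). The higher ones were *Irf9*, *Stat2*, *Usp18*, *Isg20*, *Zbp1*, *Mx2*, *Gbp3*, *Parp14* and *Xaf1*, and the lower ones *Irf1* and *Oas1a*. With the CreER pair, 8 were higher in all 3 pairs (10.7% of all genes) and 1 was lower (7.27% of all genes). The median log2 ratio of the 32 genes was 0.61 in the 96-well pair, -0.0399 in the 384-well pair and 0.905 in the CreER pair, where all genes had medians of 0, so the shift was not seen in the 384-well pair without CreER. *Stat2* was higher by log2 1.51, 0.895 and 0.462, and *Zbp1* by 0.928, 2.08 and 4.81, the latter from 11 nuclei in all. Without nuclei that held *Mrc1* or *Cd163* the 96-well direction of *Zbp1* turned, at 0.372 and 0.124 RPKM, and without its highest nucleus the 384-well Ehmt1Δ/+ level fell from 4.57 to 0.306 RPKM. Without each pool's highest nucleus, the 384-well pair also turned for *Gbp3* (3.13 and 0.536 RPKM) and *Parp14* (7.55 and 6.14 RPKM). The same held for *Xaf1* (1.01 and 0.976 RPKM) and *Oas1a* (0 and 0.353 RPKM), and *Isg20* was at 0 in both pools. The genes higher in both formats then numbered 8 and those lower 1.

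The microglia of pools labelled Ehmt1Δ/+ also held more nuclei with *Mrc1* or *Cd163*. They were 6 of 36 and 16 of 32 nuclei in the 96-well plates, 1 of 16 and 5 of 19 in the 384-well plates, and 1 of 20 and 8 of 23 in the CreER pair. The mean over 5 border macrophage and monocyte markers was 11.5, 47, 1.43, 24, 0.307 and 3.18 RPKM, with 3 to 5 of the 5 above 0 in each pool. Single nuclei carried much of it, and without the highest nucleus of each pool the means were 3.44, 28.4, 1.05, 6.23, 0.206 and 2.24 RPKM. Without these nuclei, *Usp18* was at 1.35, 8.47, 0, 2.94, 2.3 and 11.6 RPKM, again higher in the Ehmt1Δ/+ pool of all 3 pairs. The number of genes higher in both formats was 7 and that lower was 4 without them. Nuclei with and without these markers held a median of 12 and 13, 14 and 14, 8 and 8, 8 and 7.5, 8 and 7, and 10.5 and 9 of the 36 genes in the 6 pools.

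In neurons, *Ifih1* was the gene under the unadjusted level. It was at 0.201 and 0.373 RPKM, 0.135 and 0.294 RPKM, and 0.0983 and 0.187 RPKM in the 3 pairs, higher in each pool labelled Ehmt1Δ/+ (log2 0.697 ± 0.12, adjusted p = 0.608 by limma). *Herc6* was at 3.08 and 5.51 RPKM, 1.93 and 2.12 RPKM, and 1.97 and 2.68 RPKM, so the 96-well Ehmt1Δ/+ pool stood above the other 5. The share of *Slc17a7* nuclei, in which *Herc6*, *Ifih1* and *Xaf1* are higher, was also higher in each of these Ehmt1Δ/+ pools, at 75.5% and 83%, 73.7% and 82.7%, and 80% and 82.1%. Within *Slc17a7* nuclei *Herc6* was at 3.9 and 6.44 RPKM, 2.52 and 2.51 RPKM, and 2.38 and 3.18 RPKM, so the 384-well difference was not seen there, while *Ifih1* was at 0.265 and 0.443 RPKM, 0.184 and 0.342 RPKM, and 0.122 and 0.222 RPKM. *Isg20* was lower in all 3 pairs, at 0.258 and 0.194 RPKM, 0.941 and 0.541 RPKM, and 0.72 and 0.475 RPKM. In total 10 of 26 genes were higher in both formats (24.1% of all genes) and 3 were lower (33% of all genes), and in all 3 pairs 7 were higher (17.5% of all genes) and 1 was lower (13% of all genes). *Dtx3l*, *Ddx58* and *Xaf1* were among the 7, with smallest log2 ratios of 0.146, 0.132 and 0.149. In oligodendrocytes 5 of 21 were higher (20% of all genes) and 5 lower (25.6% of all genes).

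**Figure D5:**
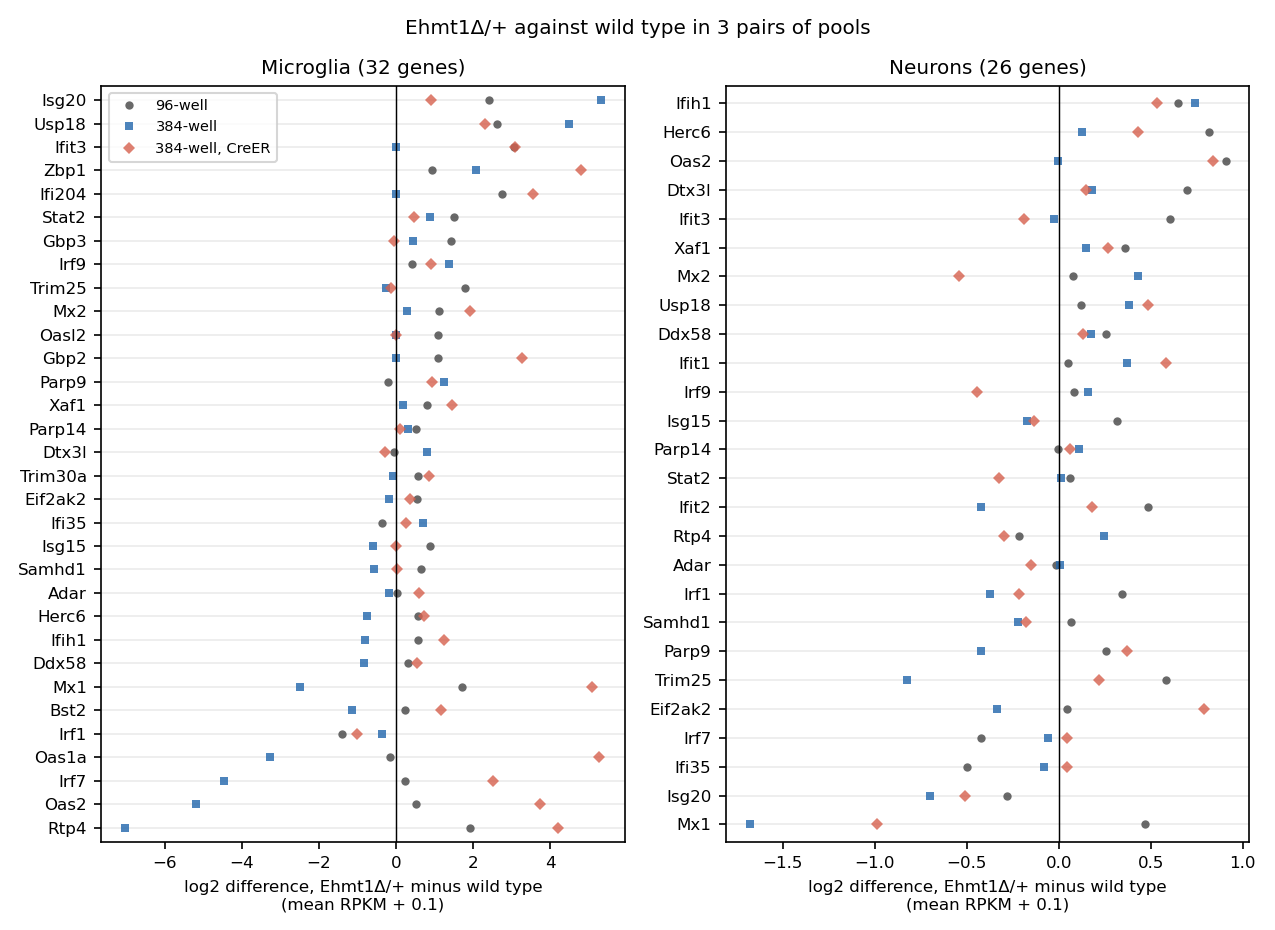
log2 difference of Ehmt1Δ/+ minus wild type (mean RPKM + 0.1, horizontal axes) for each gene in microglia (left) and neurons (right), with 1 symbol for the 96-well pair, the 384-well pair and the 384-well pair with CreER. The axes differ in range: *Usp18* lies at 2.3 or above in all 3 pairs of microglia, and the neuron ratios of *Ifih1* lie between 0.535 and 0.743.

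The transgene with CamKII-CreER was compared without replicates, as iTg against WT and as Ehmt1Δ/+; iTg against Ehmt1Δ/+, in 384-well pools. *Ehmt1* itself, over endogenous and transgene exons together, was at 19.5 RPKM in WT and 20.7 RPKM in iTg neurons, and at 31.7 RPKM in Ehmt1Δ/+ and 33.9 RPKM in Ehmt1Δ/+; iTg neurons. In neurons, none of 26 genes was 2-fold higher in the former comparison (2.26% of all genes) and 1, *Oas2*, was 2-fold lower (5.57% of all genes), at 0.247 and 0.0661 RPKM in WT and iTg. In the latter comparison 0 were 2-fold higher (8.97% of all genes) and 0 were 2-fold lower (3.13% of all genes). In microglia 3 of 28 genes were 2-fold higher (26.8% of all genes) and 8 were 2-fold lower (29.2% of all genes) in iTg than in WT. *Oas1a*, *Oas2*, *Mx1* and *Rtp4* were among the 8, at 7.52, 25.5, 4.9 and 13 RPKM in WT and 0 in iTg, and without the WT nucleus with 17 of the genes they were at 0, 0, 1.08 and 3.23 RPKM in WT. In Ehmt1Δ/+; iTg against Ehmt1Δ/+ microglia 12 of 32 were 2-fold higher (35.3% of all genes) and 2 were 2-fold lower (21% of all genes). *Trim30a* was among the higher ones, at 20.9 and 46.6 RPKM, and *Bst2* among the lower ones, at 4.69 and 2.07 RPKM. These comparisons rest on 16 to 23 microglia per pool.

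The rest of the pathway was taken from lists of ligands, receptors, signalling proteins, sensors and other induced genes. Of 15 interferon genes, only *Ifnk* was in the fit between cell types, and *Ifnb1* was listed at 0 in all nuclei. *Ifnab* and *Ifne* were kept in the fit between neuron classes, where neither passed (log2 0.259 and -0.0186, adjusted p = 0.58 and 0.984 by limma). *Ifnk* was at 3.8 ± 2.38 RPKM in oligodendrocytes (mean ± SD, n = 6 pools) and 0.0573 ± 0.0525 RPKM in neurons. All of its exon bases, however, lie inside the oligodendrocyte gene *Mob3b* on the opposite strand, which was at 7.27 RPKM in oligodendrocytes and 0.118 RPKM in neurons. Of 6 receptor chains, the 5 in the fit were higher in microglia than in both other cell types. Of all genes, 16.9% were higher than in neurons and 18.5% higher than in oligodendrocytes. *Ifngr1*, of the interferon-gamma receptor, reached 78.9 ± 32.6 RPKM in microglia and 1.23 ± 0.363 RPKM in neurons, and *Ifnar1*, of the type I receptor, at 26.9 ± 5.31, 10.7 ± 1.37 and 9.0 ± 2.3 RPKM in microglia, neurons and oligodendrocytes. *Ifnar1* was above 0 in 1599 of 1664 neurons, whereas *Ifnlr1*, of the type III receptor, was at 0 in microglia and oligodendrocytes.

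Of 14 signalling genes, 10 were higher and 1 was lower in microglia than in neurons, where 16.9% and 44.4% of all genes were, and 11 were higher and 2 lower than in oligodendrocytes, where 18.5% and 19% were. *Irf8*, the factor that macrophages need, was at 72.6 ± 10.5 RPKM in microglia and 0.379 ± 0.127 RPKM in neurons. The kinase *Jak2*, which serves the interferon-gamma receptor, was lower in microglia than in both, at 8.81 ± 3.87 RPKM in microglia, 14.5 ± 5.7 RPKM in neurons and 30.3 ± 8.45 RPKM in oligodendrocytes. The phosphatase gene *Ptpn11* was the other gene lower than in oligodendrocytes, at 11.5 ± 5.0 and 46.9 ± 11 RPKM in microglia and oligodendrocytes. Of 13 sensors and adaptors in the fit, 9 were higher and 1, *Ikbke*, was lower in microglia than in neurons (16.9% and 44.4% of all genes). *Tmem173*, which encodes STING, was at 87.3 ± 19 RPKM in microglia and 0.0497 ± 0.0769 RPKM in neurons. Of 51 other induced genes in the fit, 35 were higher and 3 lower in microglia than in neurons, beside the same 16.9% and 44.4% of all genes. The 3 were *Ifit3b*, *Ifit1bl1* and *Cmpk2*, the former pair being neighbours of *Ifit1* and *Ifit3*, and *Cmpk2* was found in 491 of 1664 neurons and 5 microglia.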

How the data were processed

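RNA of single nuclei from mouse cortex was measured by RamDA-seq in 6 pools and 3 labelled cell types. The authors mapped reads to mm10 with HISAT2 2.0.4, counted them with featureCounts of Subread 1.5.0, and set cell types by clusters and markers. The authors deposited RPKM values for 52636 genes. Read totals were recovered from the steps of the values. On average 68.6% (96-well) and 74.7% (384-well) of the values were whole reads, and all were hundredths. Some values thus hold fractions of a read, and how these arose was not tested. The shares of a single gene's values given as not whole reads allowed 0.02 reads. They differed between genes, from 0% for *Bst2* and 5.79% for *Parp14* to 48.4% for *Trim30a*, 54.2% for *Gbp3* and 66.4% for *Xaf1*. Levels of genes with many such values may hold reads of other genes, which was not tested.

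For each pool and cell type the mean RPKM of its nuclei was taken, and log2(mean RPKM + 0.1) was fitted with limma 3.58.1 in R 4.3.3, with pool (cell types) or plate format (genotypes) as a block, for genes with a mean of at least 0.1 RPKM. This scale understates the change of low genes. p-values were adjusted by Benjamini-Hochberg over all genes with a threshold of 0.05, and measure the spread between pools. A share of 0 is given with the limit that 3 counts allow, for counting error only. Alternatives were other pseudocounts and filters, limma with a trend, summed reads, 1 plate format, and leaving out pools or nuclei, of which those on *Mrc1*, *Cd163* and absent microglia markers were chosen after seeing the data. Scripts were tested on simulated data.

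Gene positions are those of GENCODE M21 for mm10, and promoter sequences those of RefSeq (GRCm38.p6). The genes and lists were chosen with earlier results of these data known. Genes named were the 10, 8 and 6 highest in microglia, neurons and oligodendrocytes, those with over 50% in 1 nucleus, up to 4 per direction by the smaller genotype ratio of equal sign in both plate formats, those at 0 in microglia, and those past the test. Other members complete a family.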

Additional observations from a re-analysis of the deposited data

Results flagged for a closer look

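In 11 of 77 sets of 6 pools, 1 pool stood apart from the other 5 by its gap. The cut is set to flag about 1 in 20 sets of normally distributed values. Its rate for levels near 0 or from few nuclei was not estimated, so the count cannot be set against chance. In microglia these were *Dtx3l* in the 384-well Ehmt1Δ/+ pool (17.5 RPKM, others 9.29 to 11.8), *Ifi204* in the 96-well Ehmt1Δ/+ pool (6.71 RPKM, others 0 to 1.08) and *Oas2* in the 384-well WT pool (25.5 RPKM, others 0 to 7.46), the last of these all from 1 nucleus. In neurons they were *Dtx3l* in the 96-well WT pool (0.143 RPKM, others 0.25 to 0.308) and *Herc6* in the 96-well Ehmt1Δ/+ pool (5.51 RPKM, others 1.93 to 3.08).

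In oligodendrocytes, the 96-well WT pool stood apart for *Bst2* (0.973 RPKM, the others 0) and *Ddx58* (1.4 RPKM, others 0.0699 to 0.525). The 384-well WT pool stood apart for *Ifit1* (0.914 RPKM, others 0 to 0.103), *Isg20* (3.17 RPKM, others 0 to 0.199) and *Usp18* (0.878 RPKM, others 0.186 to 0.441). The 384-well Ehmt1Δ/+ pool stood apart for *Ifit3* (0.509 RPKM, others 0 to 0.121). These levels are low, and *Ifit1* and *Ifit3* came from 1 nucleus each.

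*Oasl2* differed between plate formats in its contrast of microglia with neurons, by log2 4.02 (96-well minus 384-well, adjusted p = 0.00264 by limma over 31207 genes, of which 919 passed). All of its microglial signal came from 3 nuclei of the 96-well pools.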

How the results depend on the processing

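The counts between cell types stayed within 1.5 times under every alternative: 17 to 26 genes higher in microglia than neurons, 18 to 23 higher than in oligodendrocytes, and 8 to 13 lower in oligodendrocytes than neurons. Leaving out 1 pool gave 18 to 24, 20 to 24 and 10 to 11, with the fewest against neurons, 18, without the 96-well Ehmt1Δ/+ pool. The genotype fits called 0 of the genes under every alternative run. Without each pool's highest nucleus, the genes lower in both formats numbered 1 in microglia, and oligodendrocytes had 2 higher and 3 lower. Without nuclei with *Mrc1* or *Cd163* 4 were lower in microglia, and by the share of nuclei above 0, 6 were lower in neurons. The median number of genes per nucleus, 10.25 in microglia and 5 in neurons on thinned reads, was 7 and 6 at 2 or more reads and 9 and 8.5 without thinning. On thinned reads 3 genes had over 50% in 1 nucleus. The cause of these changes was not tested.

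No paired analysis was possible because the labels give no replicate numbers, where pairing by mouse or nucleus is meant. Pairing by pool was done: the fits between cell types and between neuron classes had the pool as a block. The 3 pairs of pools of 1 plate format and transgene state were fitted with the pair as a block, which left 2 residual degrees of freedom and called 0 of the genes. Leaving out a pool from a genotype fit leaves no residual degrees of freedom and was not run. Glia of the 384-well plates, with fewer reads, limit the finding of low genes there.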
